A study of Mus musculus with 8 samples.

Results

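The transcripts of 9 chemokine ligands (Cxcl1, Cxcl2, Cxcl10, Cxcl16, Xcl1, Ccl3, Ccl4, Ccl5 and Ccl20) were followed in lymphoid tissue inducer (LTi) cells, out of 27179 genes in the table. They were chosen by name, and the choice was made because Cxcl2, Cxcl10 and Xcl1 had differed between tissues, so the tissue values below are a description and carry no test. LTi cells are innate lymphoid cells whose known task is to seed lymphoid organs such as lymph nodes and Peyer's patches. They were sorted as live, lineage-negative CD127+ cells with CCR6 and without KLRG1, NK1.1 and NKp46 on the surface. The 4 groups, of 2 RNA-seq libraries each, were small intestine lamina propria (LP) and Peyer's patches (PP) of C57BL/6 mice that were Tcf7fl/fl with Cre (labelled knockout), and LP and PP of C57BL/6 mice that were Tcf7+/+ (wild-type). The labels give no ages, do not say whether the wild-type mice carry Cre, and do not say whether the 2 libraries of a group, or the PP and LP libraries, came from separate animals. Every p-value below therefore measures only the spread between these libraries, which may be technical.

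Chemokines are small secreted proteins that bind receptors on moving cells and steer them along a gradient. Their families are named by the spacing of the first cysteines, as CXC, CC, XC and CX3C. CXCL1 and CXCL2 attract neutrophils through CXCR2. CXCL10, induced by interferons, acts on CXCR3 of activated T cells and NK cells, and CXCL16 is a membrane-bound ligand of CXCR6. XCL1, made by activated CD8 T cells and NK cells, acts on XCR1 of cross-presenting dendritic cells. CCL3, CCL4 and CCL5 attract T cells and monocytes, among other cells. CCL20, made by the epithelium over Peyer's patches among other sites, acts on CCR6, which is also the surface protein of the LTi gate. Transcription of several of these genes in response to inflammatory signals is known to run through NF-kB, which binds kappa B sites.

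The promoters of the members that stood out by tissue or genotype are shown, because Cxcl1 and Cxcl2 hold the same kappa B site and Cxcl10 holds kappa B sites beside an interferon-stimulated response element. The sequences are from RefSeq on GRCm38.p6 and run 5′ to 3′ on the strand of the gene up to the last base before its annotated start, over 120 bases or, for Cxcl10, 230 bases. Capitals mark the matches named below.
Cxcl1 promoter, chr5:90891125-90891244, plus strand: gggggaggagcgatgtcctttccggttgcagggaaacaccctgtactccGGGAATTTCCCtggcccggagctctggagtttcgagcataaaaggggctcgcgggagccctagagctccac
Cxcl2 promoter, chr5:90903779-90903898, plus strand: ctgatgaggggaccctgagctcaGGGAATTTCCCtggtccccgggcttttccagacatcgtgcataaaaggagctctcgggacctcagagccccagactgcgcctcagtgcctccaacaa
Cxcl10 promoter, chr5:92348890-92349119, minus strand: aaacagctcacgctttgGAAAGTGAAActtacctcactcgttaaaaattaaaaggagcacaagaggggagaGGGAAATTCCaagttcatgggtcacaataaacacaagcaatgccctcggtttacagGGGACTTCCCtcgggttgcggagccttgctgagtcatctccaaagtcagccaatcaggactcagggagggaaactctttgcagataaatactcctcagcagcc
Ccl20 promoter, chr1:83116646-83116765, plus strand: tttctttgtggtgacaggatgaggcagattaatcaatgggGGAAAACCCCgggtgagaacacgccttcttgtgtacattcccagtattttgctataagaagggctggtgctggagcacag
Xcl1 promoter, chr1:164935523-164935642, minus strand: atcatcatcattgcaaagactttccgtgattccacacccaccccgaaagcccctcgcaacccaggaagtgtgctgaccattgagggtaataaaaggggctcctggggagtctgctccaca

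Motifs were sought on both strands in the 250 bases before the start, for the 6 members with an entry in the RefSeq table (those above and Ccl3; not Cxcl16, Ccl4 and Ccl5). The consensus kappa B site was present in 4 of 6, namely Cxcl1, Cxcl2, Cxcl10 and Ccl20, against 3.9% of 32851 promoters of the table. In both Cxcl1 and Cxcl2 the matched bases were GGGAATTTCCC, a sequence that matches on both strands at overlapping positions. Cxcl10 held 2 separate kappa B matches, and in Ccl20 the match lay on the minus strand relative to the gene. The interferon-stimulated response element, searched as GAAANNGAAA, was found in Cxcl10 alone among the 6, against 2.98% of all promoters. The TCF/LEF motif, searched as CTTTGA, was in 0 of 6 and in 13.8% of all promoters. No motif of the 3 was found in this window for Xcl1 or Ccl3. These matches describe letters in a window, and binding was not measured.

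**Figure D1:**
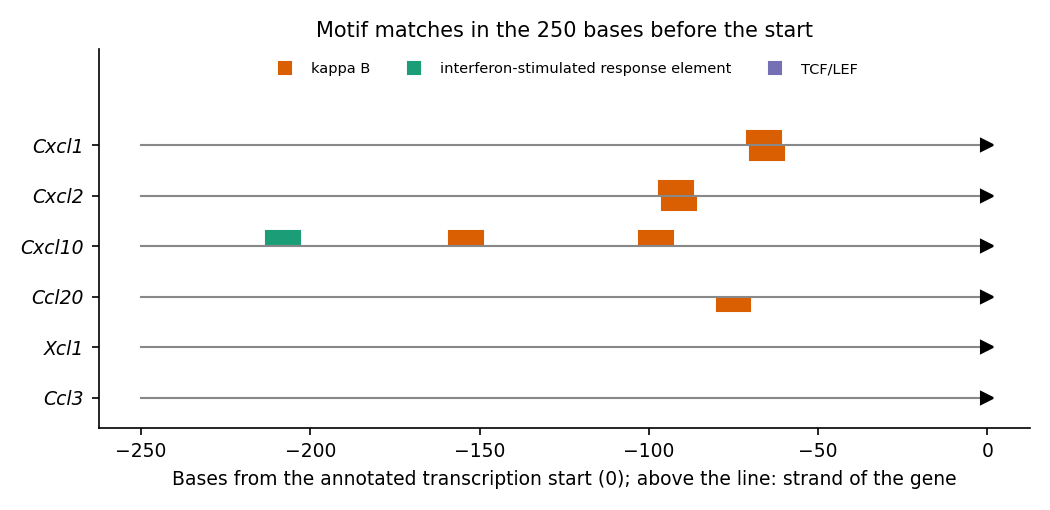
Positions of kappa B, interferon-stimulated response element and TCF/LEF motif matches in the 250 bases before the annotated start of 6 members (x axis, bases from the start; boxes above the line are on the strand of the gene, boxes below on the other). Kappa B matches lie in 4 of the 6 promoters, and the response element in Cxcl10.

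The table held log2(RPKM + 1) values, which were turned back into RPKM (reads scaled by transcript length and by library depth). Depth was estimated from the lowest values at 37.9 to 44.3 M assigned reads per library, and the read numbers and limits below scale with this estimate, which rests on annotated transcript lengths and can shift with the genes used. A gene was kept for testing when 2 or more of the 8 libraries had 1 RPKM or more, as held for 10541 genes in all. The members kept were 6 of 9 (Cxcl1, Cxcl2, Cxcl10, Xcl1, Ccl5 and Ccl20). Tcf7, the targeted gene, stood at 237 and 215 RPKM in LP labelled knockout, against 229 and 246 RPKM in wild-type LP. In PP it stood at 355.5 and 337 RPKM in the libraries labelled knockout, against 242.5 and 85.4 RPKM in wild-type. No reduction passed the test (log2 fold change 1.26 ± 0.48 (SE) in PP and -0.07 ± 0.48 in LP, limma adjusted p = 0.365 and 1), and a gene-level RPKM says nothing of single exons, so genotype rests on the labels alone. All 16 of the LTi and ILC3 identity markers reached 1 RPKM, led by Il22 and Id2. The mitochondrial share of summed RPKM was 13.4% and 13.6% in PP labelled knockout, against 3.06% to 5.06% in the other 6 libraries. Sex-linked transcripts differed within groups: Ddx3y, on the Y chromosome, was at 0.312 and 67.5 RPKM in LP labelled knockout, and Xist, on the X chromosome, at 60.3 and 0.0866 RPKM. In wild-type they also differed between tissues: Ddx3y was at 58.9 and 71.3 RPKM in LP and 0.779 and 0.223 RPKM in PP. Xist was at 0.0712 and 0.0784 RPKM in wild-type LP and 9.60 and 9.22 RPKM in wild-type PP, while Kdm5d, on the Y chromosome, varied between replicates in both. Tissue and sex therefore cannot be fully told apart in wild-type. In PP labelled knockout, Xist was at 0.326 and 1.84 RPKM, below both wild-type PP libraries. Ddx3y was at 8.93 and 1.36 RPKM there, above both wild-type PP libraries. Kdm5d was at 0.0190 and 0.0182 RPKM there, against 0.00944 and 18.3 RPKM in wild-type PP. Genotype and sex therefore cannot be fully told apart in PP.

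Among the neutrophil attractants, Cxcl2 (Entrez Gene 20310, chromosome 5, 90903899 to 90905938) was high in every LP library and near 1 RPKM in every PP library. It had 550.5 and 291 RPKM in LP labelled knockout and 123 and 160 RPKM in wild-type LP. In PP it had 1.15 and 1.19 RPKM in the libraries labelled knockout and 0.971 and 0.956 RPKM in wild-type. The 4 LP libraries lay above all 4 PP libraries, and within LP both libraries labelled knockout lay above both wild-type ones. The mean was 421 ± 183 RPKM in LP labelled knockout and 141 ± 26 RPKM in wild-type LP (SD, n = 2 each), and the mean of the LP libraries was 263 times that of the PP libraries. LP minus PP on the log2(RPKM + 1) scale, which understates the change of low genes, was 7.53 in the libraries labelled knockout and 6.17 in wild-type. By group mean, Cxcl2 was the highest member in LP labelled knockout, and Cxcl10 was the highest in wild-type LP. Of 2159 stretches of 50 bases in its transcripts, 126 also occur in transcripts of Cxcl3, so reads of these 2 genes may be split between them.

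Cxcl1 (14825, chromosome 5, 90891245 to 90893121), which lies near Cxcl2 and shares its receptor, had the same order of tissues at a lower level. It had 20.8 and 64.7 RPKM in LP labelled knockout and 60.9 and 52.5 RPKM in wild-type LP. In PP it had 0.190 and 0.130 RPKM in the libraries labelled knockout and 0.242 and 0.330 RPKM in wild-type. The tissues did not overlap, while the genotypes overlapped within LP. LP minus PP was 5.03 in the libraries labelled knockout and 5.49 in wild-type on the log2(RPKM + 1) scale.

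Cxcl10 (15945, chromosome 5, 92346638 to 92348889), the interferon-induced CXCR3 ligand, had 170.2 and 434 RPKM in LP labelled knockout and 243 and 130 RPKM in wild-type LP. Its PP values were 0.940 and 0.903 RPKM in the libraries labelled knockout and 0.769 and 0.756 RPKM in wild-type. All 4 LP libraries lay above all 4 PP libraries, and within LP the genotypes overlapped. Means were 302 ± 186 RPKM in LP labelled knockout and 186 ± 80.0 RPKM in wild-type LP (SD, n = 2 each). The mean of the LP libraries was 290 times that of the PP libraries, and LP minus PP was 7.15 in the libraries labelled knockout and 6.66 in wild-type on the log2(RPKM + 1) scale. In bulk RNA, fewer cells of a type and less RNA per cell cannot be told apart.

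Ccl20 (20297, chromosome 1, 83116766 to 83119167), the CCR6 ligand, also separated the tissues, with 1 LP library near the PP level. It had 20.4 and 0.127 RPKM in LP labelled knockout and 21.3 and 9.32 RPKM in wild-type LP. It was listed at 0 in both PP libraries labelled knockout and had 0.0320 and 0.0843 RPKM in wild-type PP. The lowest LP value, in replicate 2 labelled knockout, corresponds to an estimated 6.91 reads, and the highest PP value to 5.30 reads. LP minus PP was 2.30 in the libraries labelled knockout and 3.84 in wild-type on the log2(RPKM + 1) scale, and the value of the libraries labelled knockout was between 0.17 and 4.42 with 1 library left out.

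Xcl1 (16963, chromosome 1, 164931644 to 164935522), the XCR1 ligand, was high in 1 group. It had 68.0 and 85.6 RPKM in PP labelled knockout, against 0.256 and 0.224 RPKM in wild-type PP. In LP it had 0.189 and 0.304 RPKM in the libraries labelled knockout and 0.207 and 0.356 RPKM in wild-type. Both PP libraries labelled knockout thus stood apart from the other 6, with an estimated 1356 and 1768 reads against 4.10 to 7.05 reads. Its mean was 76.8 ± 12.4 RPKM in PP labelled knockout, against 0.240 ± 0.0221 RPKM in wild-type PP (SD, n = 2 each). LP minus PP was -5.96 in the libraries labelled knockout and 0.05 in wild-type on the log2(RPKM + 1) scale.

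Ccl5 (20304, chromosome 11, 83525778 to 83530518), a ligand of CCR1 made by effector T cells and NK cells, varied more between replicates than between groups. It had 0.357 and 38.2 RPKM in LP labelled knockout and 17.7 and 82.8 RPKM in wild-type LP. It had 31.6 and 56.7 RPKM in PP labelled knockout and 0.241 and 56.1 RPKM in wild-type PP. Tissues and genotypes both overlapped. LP minus PP was -2.57 in the libraries labelled knockout and 2.24 in wild-type on the log2(RPKM + 1) scale, and leaving out 1 library moved them to between -5.00 and -0.15 and to between -0.53 and 4.997.

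The other 3 members were too low to test. Cxcl16 (66102, chromosome 11, 70454389 to 70459984) had 0.00977 and 10.5 RPKM in LP labelled knockout and 0.956 and 0 RPKM in wild-type LP, so its signal in LP labelled knockout came from replicate 2. In PP it had 0 and 0.0102 RPKM in the libraries labelled knockout and 0.0420 and 0.00926 RPKM in wild-type. Ccl4 (20303, chromosome 11) was listed at 0 in 6 libraries, with 0.157 RPKM in replicate 1 of PP labelled knockout and 0.0789 RPKM in replicate 1 of wild-type LP. Ccl3 (20302, chromosome 11) was listed at 0 in all 8 libraries, where 3 reads, the limit that a count of 0 allows, correspond to 0.0884 to 0.103 RPKM. These limits cover counting error only, since reads amplified by PCR carry no molecular identifiers and can be copies of 1 molecule.

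**Figure D2:**
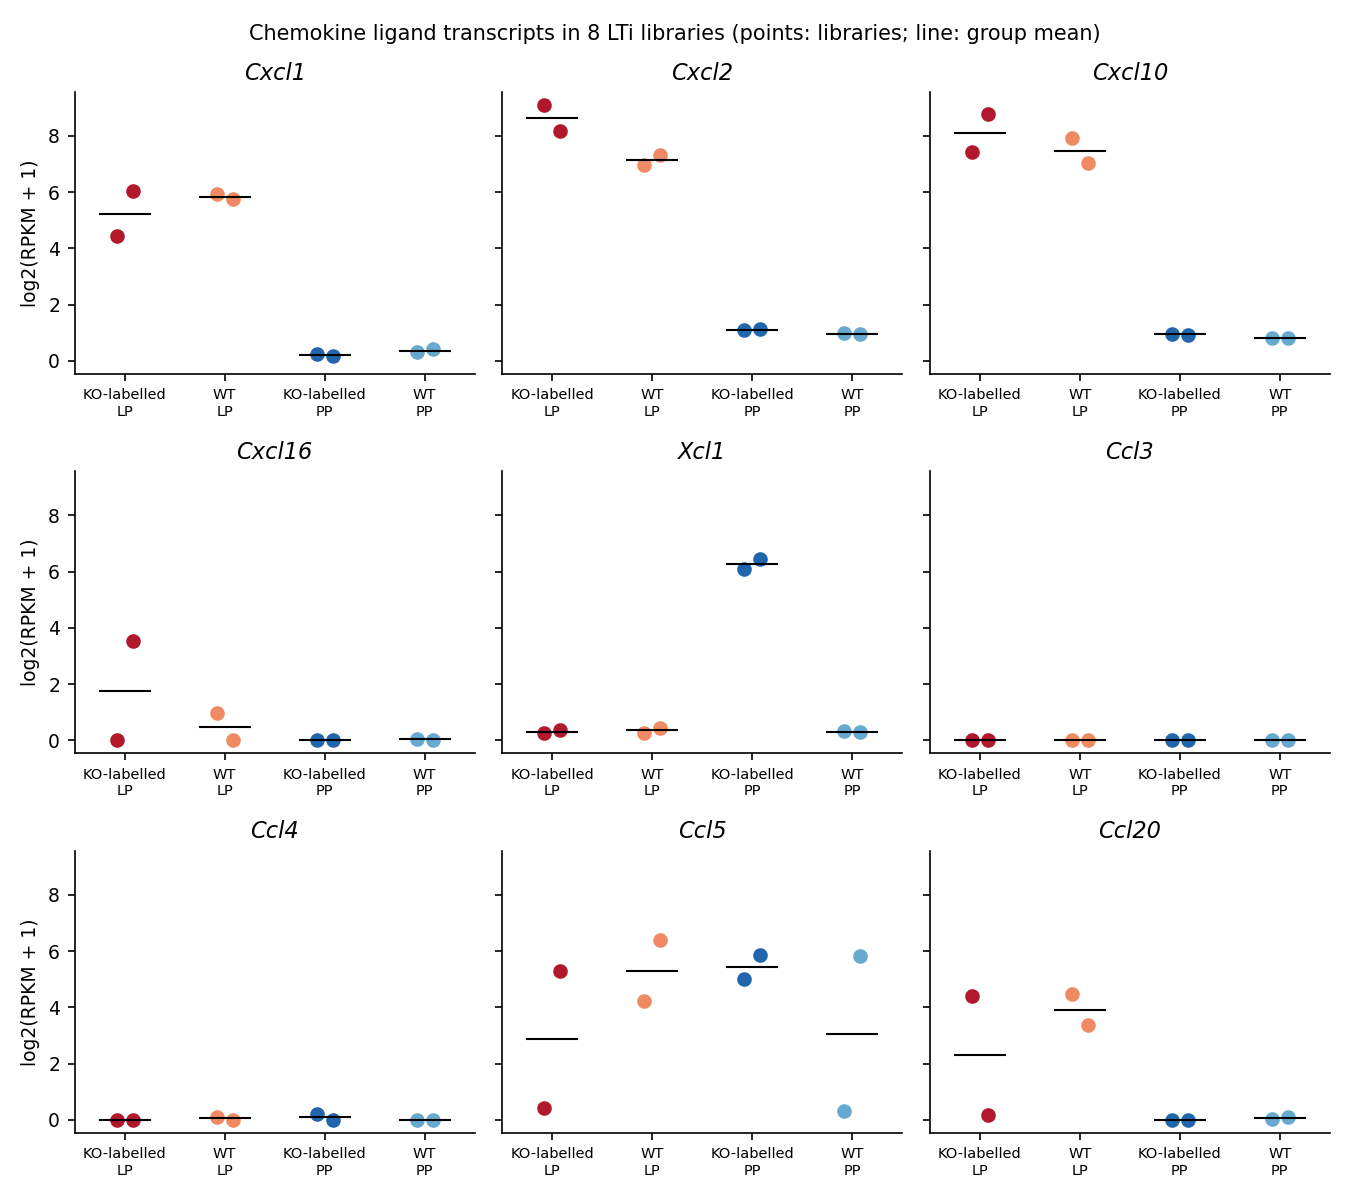
log2(RPKM + 1) of the 9 chemokine ligands (y axis, 1 panel each) in LP labelled knockout (KO), wild-type (WT) LP, PP labelled knockout and wild-type PP (points are libraries, n = 2 per group; lines are group means of the log values). Cxcl1, Cxcl2 and Cxcl10 are high in all 4 LP libraries, Xcl1 in the 2 PP libraries labelled knockout, and Ccl5 differs widely between replicates.

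Of the 6 members kept, 4 (Cxcl1, Cxcl2, Cxcl10 and Ccl20) had all 4 LP libraries above all 4 PP libraries, as did 6.54% of the 10541 genes. The choice of members used this contrast, so nothing is read from that share. For Ccl20 the separation rests on an estimated 6.91 reads in LP against 5.30 reads in PP, which are too few to tell apart. The median LP minus PP of the kept members was 4.16 on the log2(RPKM + 1) scale, against -0.10 over all genes kept. In several members the low libraries held a like share of the summed RPKM of the 8 libraries. For Cxcl2 each PP library held 0.0847% to 0.106% of the sum, for Cxcl10 0.0772% to 0.0959% and for Cxcl1 0.0652% to 0.165%. For Xcl1 the 6 low libraries held 0.122% to 0.229%, and for Ccl5 the 2 low libraries held 0.126% (LP labelled knockout, replicate 1) and 0.0850% (wild-type PP, replicate 1). Ccl20 differed, with 2 PP libraries at 0 and its other 3 low libraries at 0.0625%, 0.164% and 0.248%, and Cxcl16 was at 0 in 2 libraries. Over the table, 5154 kept genes summed to at least 100 RPKM, and in 2644 of them the lowest library held under 1% of the sum. In these 2644 genes the lowest share had a median of 0.0949% (quartiles 0.0753% and 0.120%), and 40 of them were at 0. Per the file headers, all 8 libraries carry the same sequencing lane label. Whether reads at this level belong to the library they are listed in was not tested, so the ratios between tissues given for Cxcl2 and Cxcl10 compare a high level with a level near this share.

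Of the 31 other ligands in the table, 17 were at 0 in every library and 6 were kept. Of these 6, 3 had all LP libraries above all PP libraries, against 6.54% of the 10541 genes. Cxcl3 and Cxcl9 were kept only through LP libraries, so nothing is read from that count. Cxcl3, a CXCR2 ligand, ranged from 0.539 to 49.3 RPKM over the LP libraries and from 0.0491 to 0.133 RPKM over the PP libraries. Cxcl9, a CXCR3 ligand like Cxcl10, ranged from 15.1 to 42.4 RPKM in LP and from 0.0884 to 0.146 RPKM in PP. Cx3cl1, the membrane-bound ligand of CX3CR1, was the highest of the 31, at 501 to 1198 RPKM in LP and 115 to 194 RPKM in PP. Ccl17, Ccl25 and Ccl27a overlapped between tissues.

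**Figure D3:**
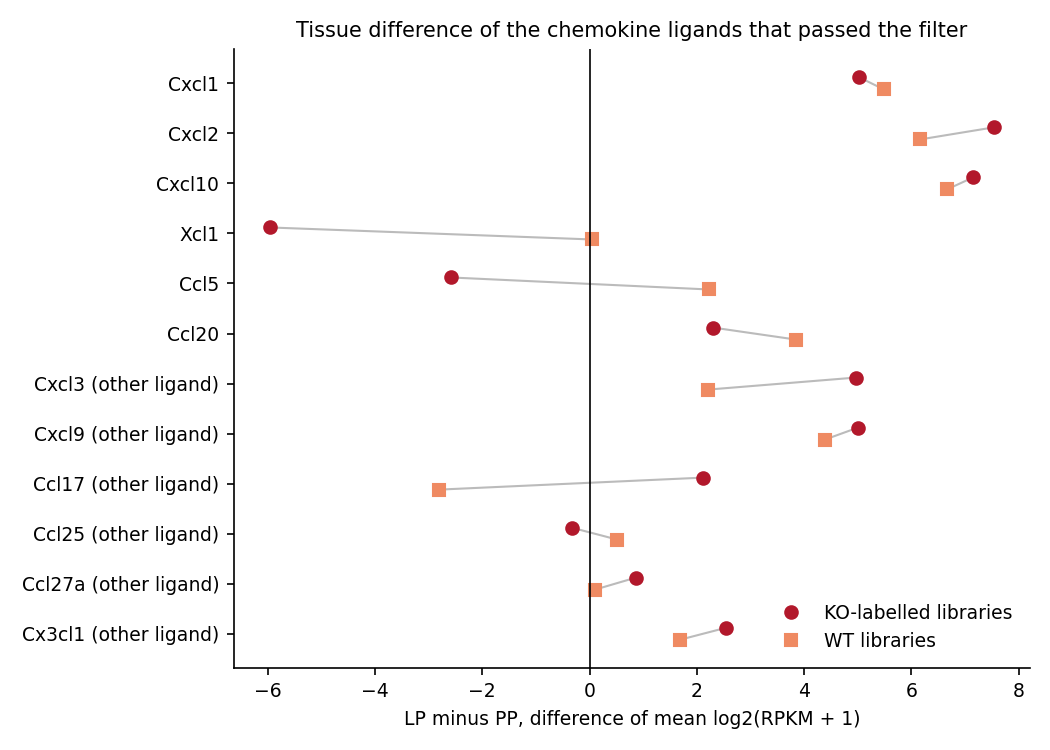
LP minus PP difference of mean log2(RPKM + 1) (x axis) for the 6 chemokine ligands kept and the 6 other ligands kept, in libraries labelled knockout (circles) and wild-type libraries (squares), each from 2 LP and 2 PP libraries. Cxcl1, Cxcl2, Cxcl10, Ccl20, Cxcl3, Cxcl9 and Cx3cl1 lie right of 0 in both genotypes, and Xcl1 lies at -5.96 in the libraries labelled knockout and at 0.05 in wild-type.

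Of 15 NF-kB feedback and inducible genes, all were kept and 12 had every LP library above every PP library, against 6.54% of the 10541 genes, with a median LP minus PP of 2.59 on the log2(RPKM + 1) scale. Nfkbia, the inhibitor of NF-kB that NF-kB induces, ranged from 1713 to 1814 RPKM in LP and from 343 to 869 RPKM in PP. Tnfaip3, a deubiquitinase that ends NF-kB signalling, ranged from 684 to 948 RPKM in LP and from 12.1 to 37.3 RPKM in PP. Traf1, an adaptor of TNF receptors, ranged from 520 to 592 RPKM in LP and from 12.5 to 245 RPKM in PP. Of 20 interferon response genes, 14 were kept and 1 had every LP library above every PP library, with a median LP minus PP of -0.53. Psmb8, Psmb9 and Igtp, the highest of these, overlapped between tissues. These lists were chosen with results of these data known, and they are described without a test.

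Of 11 receptors of the members, 6 were listed at 0 in all libraries, among them Cxcr2, Ccr3, Ackr1, Ackr2 and Ackr4, and 5 were kept. Cxcr6, the CXCL16 receptor, was the highest, with means of 1310 ± 602 RPKM in LP labelled knockout, 450 ± 95.6 RPKM in wild-type LP, 1021 ± 87.9 RPKM in PP labelled knockout and 696 ± 71.1 RPKM in wild-type PP (SD, n = 2 each). Ccr6, the CCL20 receptor whose protein was part of the gate, averaged 127 ± 53.6 RPKM in LP labelled knockout, 275 ± 70.7 RPKM in wild-type LP, 366 ± 45.2 RPKM in PP labelled knockout and 458 ± 196 RPKM in wild-type PP. Cxcr3, the receptor of CXCL10, averaged 2.18 ± 2.93 RPKM in LP labelled knockout and 34.2 ± 11.8 RPKM in wild-type LP, and did not exceed 0.0980 RPKM in PP. Xcr1 ranged from 5.33 to 19.6 RPKM in LP and from 0.0607 to 8.73 RPKM in PP, and Ccr1 from 0.0919 to 56.2 RPKM in LP and from 0.0796 to 13.1 RPKM in PP. No receptor passed the test for genotype in either tissue by limma, although 4 of the 5 had an unadjusted p under 0.05 in LP, against 5.27% of all genes (the smallest limma adjusted p was 0.342, for Cxcr6, at a log2 fold change of 1.47 ± 0.33 SE) and 0 of the 5 in PP.

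The comparison of genotypes, labelled knockout minus wild-type, addressed which transcripts depend on Tcf7 in LTi cells, with genotype read from the labels. In PP, 0 of the 6 members passed an adjusted p of 0.05 by limma, against 0.36% of the 10541 genes (38 genes, 28 higher and 10 lower). Cxcl1, Cxcl10 and Ccl20 were kept only through LP libraries, so this count says little of a genotype effect on them in PP. An unadjusted p under 0.05 was found for 1 of 6 members, against 11.4% of the genes. That member was Xcl1, with a log2 fold change of 5.96 ± 0.92 (SE) and a limma adjusted p of 0.0617. Xcl1 was kept only through the 2 PP libraries labelled knockout, and their values also set the tissue difference it was chosen for, so its genotype values in PP, in the difference and in the average are a description and no independent test. Leaving out 1 library at a time gave 5.80 to 6.13, and over the 17 alternatives run the limma adjusted p ranged from 0.0183 without the filter on low values to 0.358 with only the PP groups fitted, under 0.05 in 2 of them. Ccl5 had a log2 fold change of 2.37 ± 2.17 (limma adjusted p = 0.714), which moved to -0.39 when replicate 1 of wild-type PP was left out and to 5.13 when replicate 2 was. The other 4 members had log2 fold changes between -0.15 (Cxcl1) and 0.14 (Cxcl2) with limma adjusted p of 1, from levels near 1 RPKM or below in both groups; those of Cxcl2 and Cxcl10 changed sign after median-of-ratios rescaling.

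In LP, 0 of 6 members passed, against 0.0285% of genes (3 genes), and 0 members had an unadjusted p under 0.05, against 5.27% of genes. The largest excess was that of Cxcl2, at a log2 fold change of 1.51 ± 0.69 (limma adjusted p = 1), and both libraries labelled knockout lay above both wild-type ones. Cxcl10 had 0.61 ± 0.79 and Cxcl1 had -0.61 ± 1.04, with replicates of the genotypes overlapping. Ccl5 had -2.44 ± 2.17 and Ccl20 had -1.63 ± 1.45, and each of these turns on a single low library labelled knockout: without it the log2 fold change was -0.01 for Ccl5 and 0.50 for Ccl20. Xcl1 had -0.04 ± 0.92, with a change of sign after median-of-ratios rescaling. It did not exceed 0.356 RPKM in LP and was kept only through PP libraries, so this value says little.

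The difference of the genotype effect between LP and PP passed for 0 of 6 members, against 0.0285% of genes. For Xcl1, the 1 member with an unadjusted p under 0.05 (8.75% of genes), it was -6.00 ± 1.30 (limma adjusted p = 0.309). This difference equals the difference of the tissue contrasts, so it is not independent of how the members were chosen. The average genotype effect over tissues passed for 0 of 6 members, against 0.00949% of genes, and 1 member (Xcl1, 2.96 ± 1.25, limma adjusted p = 0.726) had an unadjusted p under 0.05, against 6.81% of genes. The spread of these fits was wide, with a median SE of 1.24 for a genotype effect in 1 tissue. None of the 6 other ligands kept passed in any of the 4 comparisons by limma, with 1 at an unadjusted p under 0.05 in PP, 0 in LP, 0 for the difference and 1 for the average. Ccl25, an epithelial chemokine that acts on CCR9, had the smallest adjusted p of these in PP (0.271, log2 fold change 3.57 ± 1.15). None of the NF-kB genes (3 at an unadjusted p under 0.05 in PP, 0 in LP, 1 for the difference and 1 for the average) or interferon genes (0, 2, 1 and 0 in the same order) passed by limma. For the 6 other ligands, 15 NF-kB genes and 14 interferon genes kept, these counts stand beside 11.4%, 5.27%, 8.75% and 6.81% of all genes in the same order.

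**Figure D4:**
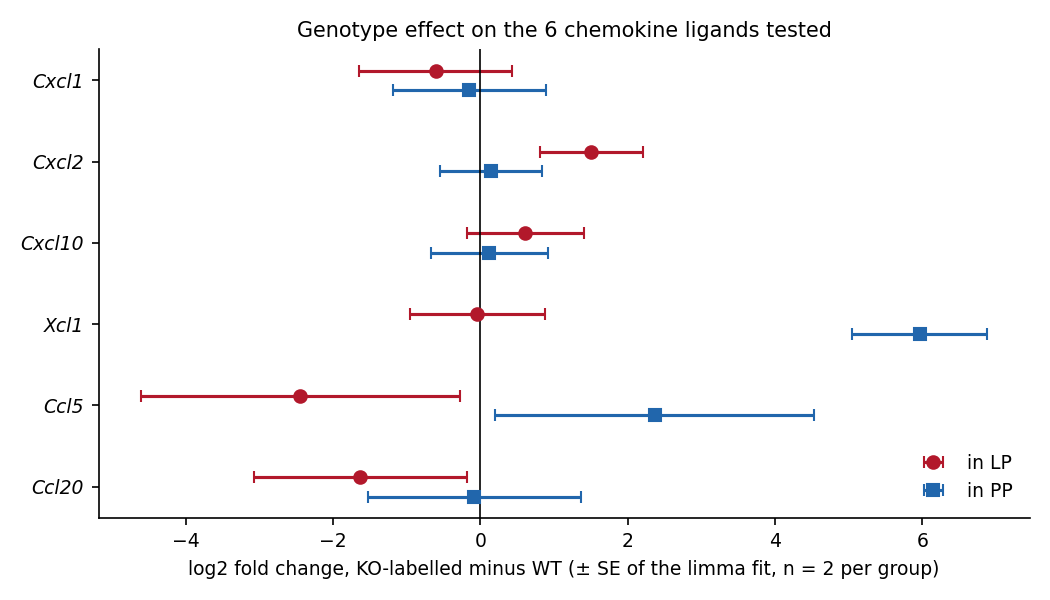
Genotype effect on the 6 chemokine ligands kept, as log2 fold change of labelled knockout minus wild-type (x axis; bars are ± 1 SE of the limma fit, n = 2 libraries per group) in LP (circles) and PP (squares). Xcl1 in PP lies at 5.96, and the bars of Cxcl1 and Cxcl10 span 0 in both tissues.

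Transcripts listed as markers of other cells moved with some of these results. Their part in them, and which cells carried them, was not tested. With the tissue difference, the summed level of 12 NK cell and ILC1 markers, led by Klrk1 and Gzma, was 156 to 236 RPKM in LP and 10.3 to 98.5 RPKM in PP, while Ncr1, Eomes, Klra8 and Klre1 were at 0 in every library. The 18 myeloid markers, led by Cd14 and Cd68, summed to 10.7 to 120 RPKM in LP and 0.856 to 74.1 RPKM in PP, with S100a8, S100a9, Csf3r, Clec9a, Flt3, C1qa, C1qb and Mrc1 at 0 in every library. The 12 B and plasma cell markers, led by Igkc and Igha, summed to 24483 to 38719 RPKM in LP and 7126 to 13718 RPKM in PP, with Pax5 at 0. The 12 T cell markers, led by Trbc2 and Cd4, summed to 249 to 442 RPKM in LP and 664 to 1044 RPKM in PP. Trbc2 alone was at 112 to 172 RPKM in LP and 298 to 497 RPKM in PP. Cd4 was at 48.7 to 180 RPKM in LP and 170 to 318 RPKM in PP. These 2 genes weigh heavily in the sum, and whether T cells or the sorted LTi cells carried them was not tested. The 18 epithelial markers, led by Tff3 and Fabp2, summed to 287 to 1200 RPKM in LP and 152 to 823 RPKM in PP. The 12 stromal and endothelial markers, led by Pecam1 and Pdgfrb, summed to 28.1 to 64.5 RPKM in LP and 78.5 to 205 RPKM in PP. In LP, where both libraries labelled knockout were higher for Cxcl2, the myeloid sums were 120 and 78.1 RPKM in those libraries. They were 18.7 and 10.7 RPKM in wild-type LP. The stromal and endothelial sums had the same order in LP (50.9 and 64.5 against 46.6 and 28.1 RPKM). The NK cell and ILC1, B and plasma cell, T cell and epithelial sums overlapped between genotypes in LP. In PP, where Xcl1 differed, both libraries labelled knockout lay above both wild-type ones for 2 of the 12 T cell markers (Cd3e and Cd8b1), below them for 3 (Trbc1, Trbc2 and Cd5) and overlapped for 7, all named after their values were seen. The share of all genes that separate these libraries in this way was not counted, so such counts here and below are only a description. Cd3e had 40.6 and 56.3 RPKM in PP labelled knockout, against 0.179 and 3.82 RPKM in wild-type PP, and Cd8b1 had 11.8 and 23.9 RPKM, against 0.0182 and 0.0795 RPKM. Cd8a, among those that overlapped and also named after its values were seen, had 0.0166 and 0.0160 RPKM, against 0.0165 and 0.00726 RPKM. Cd5 had 0.0876 and 0.0722 RPKM in PP labelled knockout, against 43.2 and 2.08 RPKM in wild-type PP, and Trbc2 had 298 and 410 RPKM, against 451 and 497 RPKM. The T cell markers as a whole summed to 664 and 918 RPKM in PP labelled knockout, against 826 and 1044 RPKM in wild-type PP, and the NK cell and ILC1 markers to 98.5 and 10.3 RPKM, against 34.1 and 15.95 RPKM. The epithelial markers summed to 727 and 823 RPKM in PP labelled knockout, against 382 and 152 RPKM in wild-type PP, with 9 of 18 above in both libraries and 0 below. Some of the 9 rest on low values, such as Spink4 at 0.395 and 0.886 RPKM against 0.261 and 0.229 RPKM. The sum over B and plasma cell markers was 7390 and 7126 RPKM in PP labelled knockout, against 13718 and 13634 RPKM in wild-type PP, with 2 of 12 above (Cd79b and Igha) and 3 below (Jchain, Igkc and Ighm). The myeloid markers summed to 55.4 and 14.8 RPKM, against 74.1 and 0.856 RPKM. The same 2 libraries labelled knockout had the high mitochondrial share of 13.4% and 13.6%.

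Genes whose pattern was most like that of a member were ranked by Pearson's r of log2(RPKM + 1) over the 8 libraries, which share a lane and fall into high and low sets, so that r mostly follows that split and is given as a description. For Cxcl2 the closest were Gzmc (r = 0.9995), Trpt1 (0.998) and Cep83 (0.995), and Gzmc, a granzyme, had 436 and 194 RPKM in LP labelled knockout, 88.8 and 111 RPKM in wild-type LP, and 0.748 to 0.878 RPKM in PP. For Cxcl10 the genes reported are Jmy (0.999) and Dot1l (0.995). For Xcl1 the closest were Nelfcd (0.9999), Slc8b1 (0.9998) and Fcrla (0.9997), each high in the 2 PP libraries labelled knockout, with Fcrla at 19.2 and 23.3 RPKM there and at 0.0276 to 0.0446 RPKM elsewhere. Among members, r was 0.978 between Cxcl2 and Cxcl10, 0.987 between Cxcl1 and Cxcl10 and 0.948 between Cxcl1 and Cxcl2.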

How the data were processed

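Sorted LTi cells gave 8 RNA-seq libraries, and the labels place 2 in each group. Per the labels' protocols, total RNA came from a miRNeasy Micro kit and went into Smart-seq2, which amplifies cDNA of few cells by PCR. Per the submitters' processing notes, featureCounts (Subread) counted reads on mm10. Annotation and strand setting were not given in the sources used here. Deposited values are log2(RPKM + 1), made by the authors, with 0.0001 in place of 0. The log base was checked on low values: 54.3% of 243 were whole reads within 0.1 after undoing log2, against at most 26.0% otherwise. Depth was estimated the same way.

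Members were matched by Entrez Gene identifier and symbol (25275 of 27179 genes matched RefSeq, GRCm38.p6). Genes at 1 RPKM or more in 2 or more libraries entered limma 3.58.1 (R 4.3.3; 4 group means, and an additive model for the average effect; eBayes with trend; pseudocount 1), two-sided, with Benjamini-Hochberg adjustment over all 10541 and a threshold of 0.05. Errors are SDs of RPKM or SEs of the fit. Scripts were tested on simulated data. The members, gene lists and rules for named genes were chosen with earlier results of these data known; named genes are the members, Tcf7, up to 6 highest ligands and receptors, the 3 highest NF-kB and interferon genes, the 2 highest markers per list and the 3 genes most like Cxcl2, Cxcl10 and Xcl1. Some items that these rules name are not reported here. Alternatives were pseudocount, filter, scaling, model and leaving out each library.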

Additional observations from a re-analysis of the deposited data

How the results depend on the processing

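The count of members passing for genotype in PP was 0 and became 1 (Xcl1) without the filter on low values and 1 without the eBayes trend; in LP, for the difference and for the average it was 0 under every alternative run. The 4 members with no overlap of LP and PP libraries numbered 4 under all 12 alternatives run. A pseudocount cannot change this count and leaving out 1 library cannot lower it, so only the rescalings could have lowered it. Over all genes, the PP count of 38 was 96 without the filter, 23 after median-of-ratios rescaling (11 higher and 12 lower, against 28 and 10, with the median of all genes at -0.065 in place of 0.155), 0 with only the PP groups fitted, 138 without trend, and 1 to 34 when 1 library was left out (1 without either PP library labelled knockout). The LP count of 3 was 0 at pseudocount 0.1, 49 without the filter, 0 with only the LP groups fitted, 0 without trend, and 0 to 3 without 1 library. The difference count of 3 was 10 at pseudocount 5, 101 without the filter, 0 without trend, and 0 to 2 without 1 library. The average count of 1 was 2 at pseudocount 5, 2 without the filter, and 1 to 4 without 1 library. With a replicate block these counts were 16 in PP, 0 in LP and 1 for the difference, with 0 members. Deviations of libraries with the same replicate number showed little correlation between groups (from -0.0214 to 0.0103). Replicates of a group correlated at only 0.577 to 0.745, so a pairing by animal could be missed here and stays unknown.

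Of 396 alternative values of the members' genotype effects, 376 kept direction and side of the threshold and 18 reversed. Many could not change direction, because the filter, trend, block and groups fitted leave the log2 fold change as it is. The same holds in 1 tissue for leaving out a library of the other tissue. After median-of-ratios rescaling, Cxcl2 in PP was -0.14, Cxcl10 in PP -0.13, Xcl1 in LP 0.00315 and the wild-type LP minus PP of Xcl1 -0.0234, and at pseudocount 0.1 the average of Ccl5 was 0.0396; the cause was not tested. Of 168 alternative values of the members' LP minus PP, 4 reversed and 19 moved by more than the replicate spread, all 19 under another pseudocount or median-of-ratios rescaling. Leaving out 1 library gave ranges that cross 0 for Ccl5 in PP (-0.39 to 5.13) and on average (-1.62 to 1.41), for Cxcl1 in LP (-1.40 to 0.19) and for the difference (-1.25 to 0.34), for Cxcl10 in LP (-0.0600 to 1.28) and for the difference (-0.18 to 1.16), for Xcl1 in LP (-0.123 to 0.0448), for Ccl20 in LP (-3.75 to 0.50), for the difference (-3.67 to 0.58) and on average (-1.55 to 0.15), and for the wild-type LP minus PP of Cxcl16 (-0.0363 to 0.93), Xcl1 (-0.0384 to 0.129) and Ccl5 (-0.53 to 4.997). A lone library left in a group is assumed to vary like the other groups. With 2 libraries a group and no counts in the table, the spread limits what can be called.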
